A study of Mus musculus with 80 samples.

Results

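The genes described here encode the chemosensory receptors of the vomeronasal organ, the taste buds and the trace amine system of the mouse. They were chosen by name: every autosomal protein-coding gene of mm10 whose symbol begins with Vmn1r, Vmn2r, Tas2r or Taar. The rule found 404 genes, of which 401 could be measured out of 20560 autosomal protein-coding genes, and the other 3 (Vmn1r186, Vmn1r187 and Vmn2r122) have coordinates below the first peak of their chromosome. The 401 genes are 229 Vmn1r, 122 Vmn2r, 35 Tas2r and 15 Taar genes. Neighbours of one family within 500 kb were joined, which gave 42 clusters, 23 of them with 5 or more genes and 11 of them lone genes.

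Vmn1r and Vmn2r genes encode the 2 classes of pheromone receptor of the vomeronasal organ, which signal through the G proteins Gnai2 and Gnao1 and the channel Trpc2. Tas2r genes encode bitter taste receptors, and Taar genes encode trace amine receptors, nearly all of which work in the olfactory epithelium. A sensory neuron uses 1 or a few of these receptors. H3K27me3, trimethylated lysine 27 of histone H3, is the mark laid down by Polycomb repressive complex 2 over silent developmental genes, and Kdm6b encodes an enzyme that removes it.

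The study profiled H3K27me3 by CUT&RUN, in which an antibody guides a nuclease to marked chromatin, in fibroblasts purified with magnetic beads from digested mouse uterus. Kdm6b f/f females that also carried Pgr-Cre (driven by the progesterone receptor gene) or Pdgfra-Cre (driven by the gene of the fibroblast receptor Pdgfra) are called cKO, and Kdm6b f/f females without Cre were the controls. Both genotypes carry the floxed allele, and these females were mated to B6 males. The Pgr-Cre pairs of cKO and control came from inter-implantation sites (IIS, the uterus between embryos) at gestation days (GD) GD5.5, GD8.5 and GD14.5. A further 2 Pgr-Cre pairs came from implantation sites (IS), at GD14.5 and at GD18.5, and the single Pdgfra-Cre pair from GD14.5 IS. A separate set of B6CBAF1/J females, with no Kdm6b allele named, gave uterus at GD0.5, IIS at GD5.5 after natural mating, GD5.5 uterus of females mated to vasectomized males, and uterus of non-pregnant females given progesterone for 3 days. Each of the 16 peak lists pools 3 samples of a group, so a list is 1 measurement and the 6 pairs are the replication of the knockout comparison. The labels do not say whether GD14.5 IS and IIS came from the same females, so p-values measure the spread between pairs taken as independent. Peak coverage does not show whether Kdm6b was deleted in the sorted cells.

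To show what the promoters of these genes look like, the 250 bases before the RefSeq start of 7 genes are printed 5′ to 3′ on the gene's strand (RefSeq, GRCm38.p6), in lower case with each CG dinucleotide in capitals. Vmn1r18 (chr6:57390568-57390817, minus strand) and Vmn2r80 (chr10:79148566-79148815, plus strand) stand for the genes whose coverage fell in cKO. Tas2r119 (chr15:32177039-32177288, plus strand) and Taar6 (chr10:23985647-23985896, minus strand) are from the 3 genes called higher, although the Taar6 call depends on the flanks counted. Taar5 (chr10:23970456-23970705, plus strand) and Vmn1r233 (chr17:20994687-20994936, minus strand) stand for genes covered in every list, and Vmn1r93 (chr7:20139089-20139338, minus strand) for the genes covered in none.
Vmn1r18: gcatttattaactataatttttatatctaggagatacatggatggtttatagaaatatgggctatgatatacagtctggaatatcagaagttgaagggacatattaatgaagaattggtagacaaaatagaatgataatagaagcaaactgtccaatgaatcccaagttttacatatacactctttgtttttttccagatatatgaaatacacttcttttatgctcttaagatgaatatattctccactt
Vmn2r80: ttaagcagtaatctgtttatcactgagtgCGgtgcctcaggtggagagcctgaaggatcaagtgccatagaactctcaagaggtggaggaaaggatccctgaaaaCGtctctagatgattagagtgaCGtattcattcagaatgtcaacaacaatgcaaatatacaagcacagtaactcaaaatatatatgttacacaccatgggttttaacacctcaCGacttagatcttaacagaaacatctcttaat
Tas2r119: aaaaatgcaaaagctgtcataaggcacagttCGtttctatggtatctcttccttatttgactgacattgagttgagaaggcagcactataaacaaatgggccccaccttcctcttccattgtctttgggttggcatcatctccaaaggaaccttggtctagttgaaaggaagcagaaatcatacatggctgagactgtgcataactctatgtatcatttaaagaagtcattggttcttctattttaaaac
Taar6: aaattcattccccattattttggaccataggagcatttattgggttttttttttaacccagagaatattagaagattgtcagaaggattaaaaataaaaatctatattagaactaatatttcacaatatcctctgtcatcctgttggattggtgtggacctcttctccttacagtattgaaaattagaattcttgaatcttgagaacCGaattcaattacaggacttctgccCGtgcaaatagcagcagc
Taar5: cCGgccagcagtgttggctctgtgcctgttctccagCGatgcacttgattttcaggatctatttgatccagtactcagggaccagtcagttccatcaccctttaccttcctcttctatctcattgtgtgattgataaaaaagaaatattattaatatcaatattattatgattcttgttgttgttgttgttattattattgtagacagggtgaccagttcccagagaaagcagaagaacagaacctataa
Vmn1r233: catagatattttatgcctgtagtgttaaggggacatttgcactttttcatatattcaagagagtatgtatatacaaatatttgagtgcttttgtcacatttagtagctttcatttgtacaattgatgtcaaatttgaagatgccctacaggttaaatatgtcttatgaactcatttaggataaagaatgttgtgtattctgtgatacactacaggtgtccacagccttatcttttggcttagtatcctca
Vmn1r93: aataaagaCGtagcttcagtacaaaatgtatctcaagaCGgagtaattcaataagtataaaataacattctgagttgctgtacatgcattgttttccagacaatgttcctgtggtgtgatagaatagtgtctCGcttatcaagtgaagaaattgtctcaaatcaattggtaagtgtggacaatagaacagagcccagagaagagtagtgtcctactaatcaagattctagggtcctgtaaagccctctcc

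These windows are poor in CG. Vmn1r18 and Vmn1r233 had 0 CG, Tas2r119 had 1, Taar5 and Taar6 had 2 each, Vmn1r93 had 3 and Vmn2r80 had 4. Among the 364 receptor genes with a RefSeq window of 300 bases (250 before to 50 after the start), the median was 1 CG and 36.7% GC, and 24.2% of the windows held no CG. Over all 16457 autosomal genes with a window the medians were 14 CG and 56.7% GC, and 4.96% held no CG. The families were alike, with a median of 1 CG for Vmn1r, Vmn2r and Tas2r and 2 for Taar. CG-rich promoters are the usual seats of strong Polycomb domains, and most of these windows lacked that feature in covered and bare genes alike.

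Copies of one another are common among the vomeronasal windows. At least one word of 50 bases was shared with the window of another gene by 51.6% of the receptor genes, against 14.7% of all autosomal genes with a window. The 250 bases of Vmn1r93 above are identical to those of Vmn1r114, Vmn1r126 and Vmn1r250. Such identical upstream windows were found for 54 of 206 Vmn1r genes and 11 of 116 Vmn2r genes, and for none of the 31 Tas2r and 11 Taar genes. Reads from identical DNA cannot be placed uniquely, and the treatment of such reads before peak calling is not given in the labels or files used here.

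Values are given as coverage: how much of a gene and its flanks of 2 kb, in percent of that length, lay inside the peaks of a list. The lists are lenient. They hold 131900 to 287629 peaks over 609 to 740 Mb, with a median fold over background of 1.09 to 1.15, and 0.0501% to 1.11% of peaks reach a −log10 q of 2. Read depth is not given in these files, so the error of a value comes only from the spread over lists. The peak names in both lists of the Pgr-Cre GD14.5 IS pair carry a version mark that the names in the other lists lack, and the Pdgfra-Cre control list is the shortest, at 609 Mb.

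Of the 401 receptor genes, 199 were touched by no peak in any of the 16 lists, and the 4 families differed. These were 122 of 229 Vmn1r genes (53.3%), 66 of 122 Vmn2r genes (54.1%), 11 of 35 Tas2r genes (31.4%) and 0 of 15 Taar genes. The same held for 32.5% of all autosomal genes. At the other end, 42 Vmn1r, 10 Vmn2r, 5 Tas2r and 11 Taar genes had a mean of 50% or more over the 6 control lists. That is 18.3%, 8.20%, 14.3% and 73.3% of each family, beside 22.5% of all autosomal genes. The genes are short, with a median length of 924 bases for Vmn1r, 936 for Tas2r and 1047 for Taar. Only Vmn2r genes, which code for a large extracellular domain over several exons, are long, with a median of 24640.5 bases, so a Vmn2r value averages over far more DNA.

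Several of the most covered genes were steady over every list. Vmn1r85, Vmn1r233, Vmn1r234 and Taar2 had a coverage of 100% in all 16 lists. Taar5 and Taar3 were at 100% in all control and B6CBAF1/J lists and at no less than 91.0% in any cKO list. Tas2r144 was at 100% in every list but Pgr-Cre cKO GD8.5, where it was at 93.6%, and Tas2r138 lay between 78.6% and 100%. The highest Vmn2r genes were Vmn2r83, Vmn2r129 and Vmn2r9, with control means of 87.2% ± 6.90, 82.6% ± 7.02 and 83.1% ± 3.18 (SD, n = 6 lists). These were less steady: Vmn2r129 had 65.2%, 50.6%, 50.7% and 26.7% in the B6CBAF1/J lists, and Vmn2r83 was lower in cKO, with a mean of 72.9%. Tas2r140, the third of the Tas2r genes by mean, was also less steady, with 29.8% to 100% over the control lists. In all, 28 receptor genes had at least 50% in each of the 16 lists.

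The peaks over these genes were weak by the authors' own scores. Over the 4 families, the median fold of the peaks that touch a member was 1.04 to 1.31 in a list, about that of all autosomal peaks (1.08 to 1.15). No peak over a Taar or Tas2r gene reached a −log10 q of 2 in any list. The exception was Vmn1r233 (chr17:20993727-20994686), a gene with no CG in its printed window. It lay under a peak past that limit in 14 of 16 lists, namely 6 control, 4 cKO and 4 B6CBAF1/J lists, with a fold of 1.95 to 2.85, a −log10 q of 2.02 to 7.37 and a width of 17.5 to 25.4 kb. Besides it, such peaks touched Vmn1r4 in 2 control lists, Vmn2r129 in 1 control list, and Vmn1r2 and Vmn1r232 in 1 B6CBAF1/J list each.

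Within a family, coverage varied from cluster to cluster. Of the 23 clusters of 5 or more genes, 10 had at least 50% of their genes at 0 in all 12 Kdm6b lists, and these held 188 genes, of which 169 were at 0. The other 13 clusters held 178 genes, of which 24 were at 0. The control means of these 13 ranged from 6.76% to 74.6%. In 12 of the 13, genes were more covered than the DNA between them.

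The bare clusters include the largest of all. The Vmn1r91 to Vmn1r183 cluster (chr7:20101158-24055691) has 86 genes, of which 82 were at 0, and a control mean of 2.85% ± 0.630 (SD, n = 6 lists). The covered exceptions lie near its edge, and Vmn1r181 and Vmn1r183 had at least 50% in all 16 lists. Also on chromosome 7, 9 of 11 genes were at 0 in Vmn1r55 to Vmn1r65, 5 of 6 in Vmn1r66 to Vmn1r71 and 9 of 13 in Vmn1r72 to Vmn1r84. Among the Vmn2r clusters of that chromosome, 15 of 17 were at 0 in Vmn2r29 to Vmn2r37, 7 of 7 in Vmn2r46 to Vmn2r52, 7 of 8 in Vmn2r57 to Vmn2r126 and 10 of 12 in Vmn2r65 to Vmn2r76. Elsewhere the bare clusters were Vmn2r90 to Vmn2r110 on chromosome 17, with 19 of 22 at 0, and the bitter receptor cluster Tas2r130 to Tas2r114 on chromosome 6, with 6 of 6.

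These clusters fill the longest stretches of the autosomes without a peak. Over the 16 lists together, the longest such stretch was chr7:20048067-23325118 (3277 kb), which holds 70 Vmn1r genes. The next was chr7:7388187-10284713 (2897 kb) with 22 receptor genes, and the one after that chr17:18091991-20778226 (2686 kb) with 24. Of 603 peak-free stretches of at least 200 kb, 12 held receptor genes, 171 of them in all. The fourth in length (2612 kb, also on chromosome 7) held none, so long bare stretches are not particular to these genes.

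Near-identical copies accompany part of this bareness. Vmn1r genes at 0 in all lists shared a median of 82.5% of their window's 50-base words with other genes, and those whose mean coverage was 5% or more shared a median of 0%. Vmn2r genes went the other way, with a median of 4.78% for those at 0 and 10.8% for those at 5% or more. Of the 54 Vmn1r genes with an identical upstream window elsewhere, 53 were at 0, and of the 11 Vmn2r genes, 10 were. In the Vmn1r91 to Vmn1r183 cluster, 91.6% of windows shared a word, and the median shared fraction was 100%. Of the other bare clusters, Vmn2r46 to Vmn2r52 (100% with a shared word), Vmn2r29 to Vmn2r37 (94.1%) and Vmn1r55 to Vmn1r65 (77.8%) were also high. Vmn2r57 to Vmn2r126 (50%) and Vmn2r65 to Vmn2r76 (45.5%) were near the share of all receptor genes. The share was 18.2% in Vmn2r90 to Vmn2r110, and 0% in Vmn1r66 to Vmn1r71, Vmn1r72 to Vmn1r84 and Tas2r130 to Tas2r114. Covered clusters also ranged widely, from 0% in Vmn1r224 to Vmn1r237 to 100% in Vmn2r111 to Vmn2r117. The part of read mapping in the zeros was not tested.

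**Figure D1:**
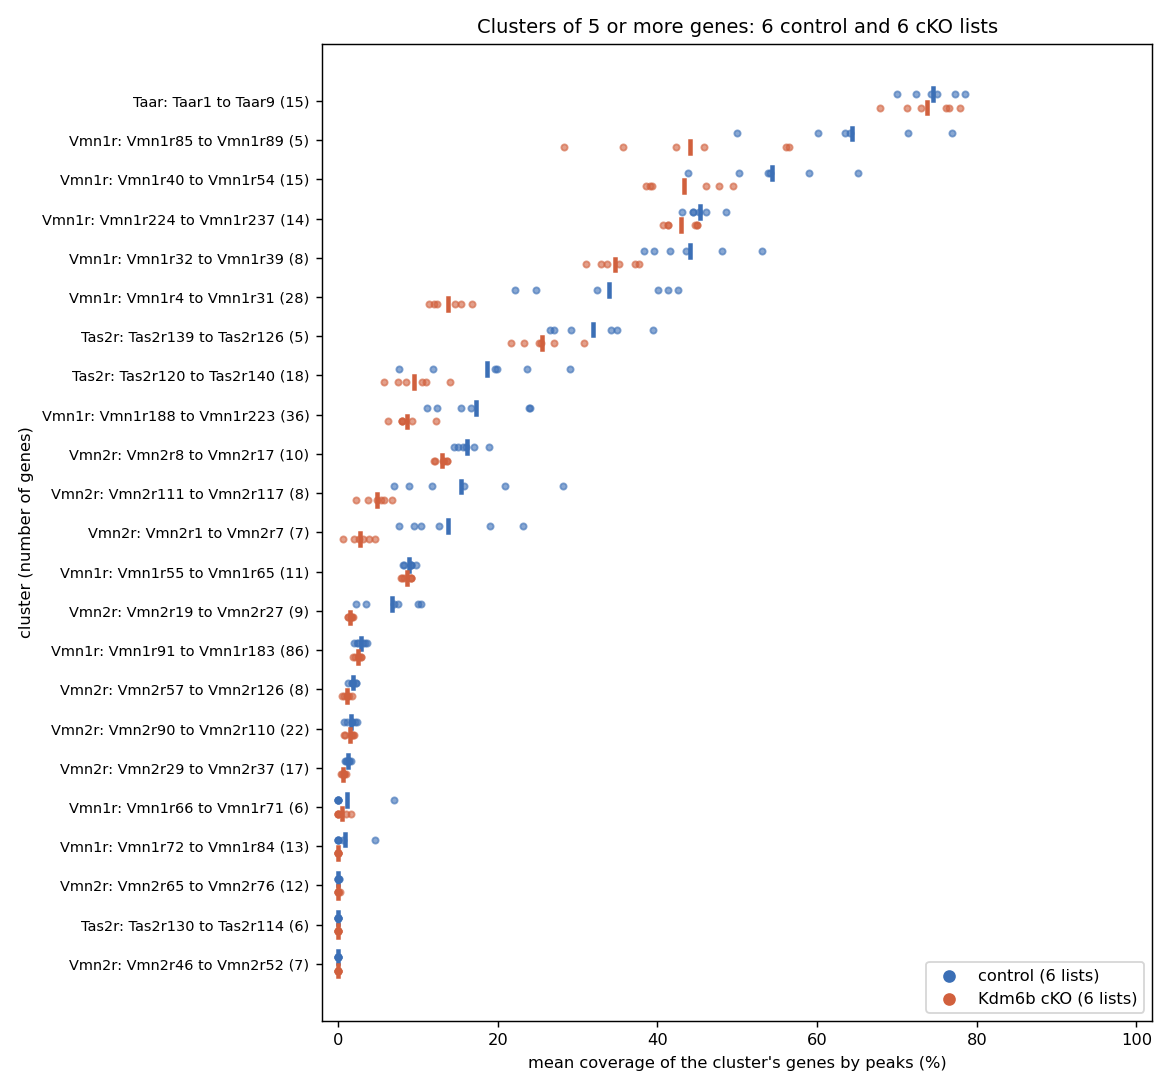
Mean coverage of the genes of each cluster of 5 or more genes (x axis, percent) in the 6 control lists (blue) and 6 Kdm6b cKO lists (orange); small points are lists, vertical bars are means, and clusters are ordered by control mean. The bare clusters sit near 0 in both genotypes, the Taar cluster is the highest at 74.6% in controls, and the Vmn1r4 to Vmn1r31 cluster shows the 2 genotypes apart, at 33.9% and 13.8%.

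In the cKO lists, both families of vomeronasal receptor genes had a lower mean coverage than in the controls in every pair. The mean over 229 Vmn1r genes was 18.3% in controls and 12.5% in cKO, a paired difference of -5.79 ± 2.66 points (SD, n = 6 pairs), lower in 6 of 6 pairs. Over 122 Vmn2r genes it was 9.64% and 5.25%, a difference of -4.39 ± 1.65 points, lower in 6 of 6 pairs. The Tas2r mean was 18.0% and 14.4%, a difference of -3.66 ± 4.60 points, lower in 4 of 6. The Taar mean was 74.6% and 73.8%, a difference of -0.758 ± 4.70 points, lower in 5 of 6. With every list cut to equal covered length, by keeping its peaks of smallest p, the differences were -4.06 points for Vmn1r, -3.51 for Vmn2r, -1.35 for Tas2r and -6.88 ± 6.81 for Taar. Without that cut, all autosomal genes had 22.8% and 22.7%, a difference of -0.0299 ± 1.49 points. With it their difference was -0.628 ± 0.593 points, lower in 5 of 6 pairs. Olfactory receptor genes, a far larger family, had 29.9% and 21.1% without the cut, a difference of -8.76 ± 4.64 points. With the cut it was -7.10 ± 2.00 points. A lower coverage in cKO was thus not confined to the vomeronasal families. These family values carry no test.

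The Vmn1r, Vmn2r and Tas2r means spread more over the control lists than over the cKO lists, and the Taar means did not (SD 3.16 in controls and 3.77 in cKO). In order of the Pgr-Cre pairs (GD5.5, GD8.5 and GD14.5 IIS, GD14.5 and GD18.5 IS) and then the Pdgfra-Cre pair, the Vmn1r means of the controls were 14.9%, 19.5%, 21.4%, 19.1%, 20.04% and 14.9%. In cKO they were 12.004%, 13.2%, 11.9%, 12.4%, 13.2% and 12.4%. All 6 control lists were above all 6 cKO lists, and the cKO lists differed among themselves by less than the controls did. Vmn2r genes followed the same order, with 8.26%, 9.82%, 11.9%, 9.46%, 11.5% and 6.84% in controls. Their cKO means were 4.68%, 5.40%, 5.36%, 5.19%, 5.85% and 5.02%, again with no overlap. The Tas2r means overlapped, at 14.6%, 20.2%, 24.6%, 18.6%, 18.7% and 11.5% in controls. In cKO they were 15.0%, 16.9%, 13.8%, 13.2%, 13.8% and 13.6%.

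**Figure D2:**
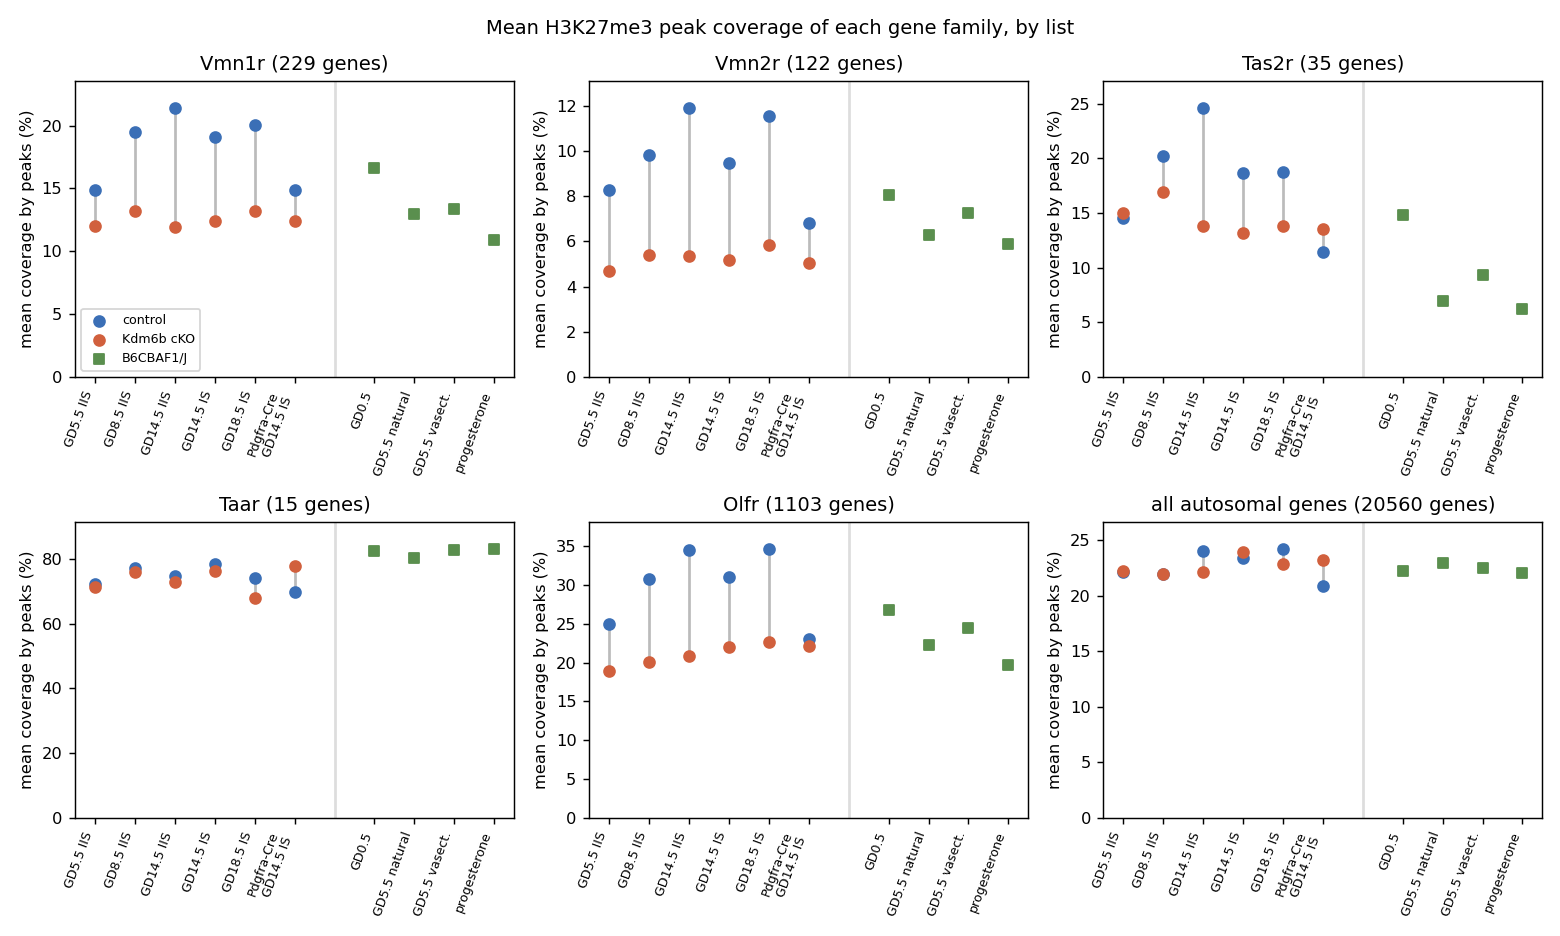
Mean coverage of each gene family (y axis, percent) in every list: control (blue) and Kdm6b cKO (orange) of each pair joined by a line, and the 4 B6CBAF1/J lists as green squares, which were called separately and are not on the same footing. Vmn1r and Vmn2r controls lie above cKO in all 6 pairs, while all autosomal genes stay between 20.9% and 24.3%.

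Gene by gene, the comparison used limma on the 6 paired differences over the 10205 genes whose mean coverage was 5% or more, with Benjamini-Hochberg adjusted p under 0.05 as the call. Of the 401 receptor genes, 134 passed that filter (75 Vmn1r, 27 Vmn2r, 17 Tas2r and 15 Taar) and 267 did not. Calls were made lower in cKO for 24 and higher for 3. Over all genes tested, 6.45% were called lower and 7.99% higher, and over the receptor genes tested it was 17.9% and 2.24%. Counting genes that were not tested as well, the 24 are 5.99% of all 401, beside 658 called lower of all 21523 genes. The calls divide by family: 11 lower and 0 higher of 75 Vmn1r genes, 13 lower and 0 higher of 27 Vmn2r genes, 0 lower and 1 higher of 17 Tas2r genes, and 0 lower and 2 higher of 15 Taar genes. At an unadjusted p under 0.05 the counts were 67 lower and 5 higher, beside 1577 lower and 1711 higher of the 10205 genes. Counting direction alone, 41 of the 401 genes were lower in all 6 pairs (10.22%) and 3 were higher (0.748%), beside 3.74% and 6.78% of all autosomal genes. The number of lower calls was 9 to 25 when 1 pair was left out, and 8 of the 24 genes were called whichever pair was left out. It was 9 to 13 without the Pgr-Cre pair of GD8.5 IIS (10), GD14.5 IIS (13), GD14.5 IS (11) or GD18.5 IS (9). At equal covered length, where 88 receptor genes passed the filter, the counts were 9 lower, 7 of them among the 24, and 0 higher, beside 372 lower of all 8887 genes. With no filter on mean coverage 8 were called lower, with no flanks 13, and over 2 kb on each side of the start alone 0. It was also 0 with peaks past a −log10 q of 2 or with a fold of at least 1.5, where 3 and 13 receptor genes were left to test.

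Among the pheromone receptors of the Vmn2r class, the group on chromosome 10 fell as a whole. All 4 genes of Vmn2r80 to Vmn2r83 (chr10:79148816-79492154) were called lower. Vmn2r80 had 83.5%, 87.6%, 80.8%, 82.3%, 86.0% and 63.7% in the 6 controls and 40.0%, 56.6%, 41.3%, 41.1%, 47.6% and 36.9% in cKO. No cKO list reached the lowest control. Its difference was -36.7 points (SE 2.47, limma adjusted p = 0.00302), the smallest p of the receptor genes. Vmn2r82 had 66.8% to 88.9% in controls and 33.9% to 49.98% in cKO, a difference of -36.5 points (SE 3.47, limma adjusted p = 0.00471), with no overlap. Vmn2r81 went from 52.7% ± 16.4 to 18.4% ± 7.32 and Vmn2r83 from 87.2% ± 6.90 to 72.9% ± 6.02 (SD, n = 6 lists; limma adjusted p = 0.0215 and 0.0121). The cluster's genes had a mean of 74.8% in controls and 44.4% in cKO, and the DNA between them 28.5% and 9.70%.

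Other Vmn2r calls lay in small groups. Vmn2r88 and Vmn2r89, a pair on chromosome 14, fell from 71.7% ± 8.67 to 41.8% ± 8.53 and from 74.9% ± 9.55 to 52.5% ± 14.1. Vmn2r117, at the end of the Vmn2r111 to Vmn2r117 cluster, had 40.1% to 76.6% in controls and 18.2% to 33.2% in cKO, with no overlap (-31.9 points, SE 4.53, limma adjusted p = 0.0135). Vmn2r118, a lone gene on chromosome 17, had 20.8% to 46.1% in controls and 4.22% to 15.8% in cKO (-25.7 points, SE 3.80, limma adjusted p = 0.0151). Vmn2r18, Vmn2r57, and Vmn2r2, Vmn2r3 and Vmn2r4 of the first cluster on chromosome 3 were also called lower, from control means of 14.8% to 30.1%. Vmn2r2 and Vmn2r4 had only 2.48% and 4.24% in cKO, so they passed the filter through the controls, and without the filter 6 Vmn2r genes were called lower in place of 13. Vmn2r1 of the same chromosome 3 cluster missed the threshold (limma adjusted p = 0.0502).

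Of the 11 Vmn1r calls, 9 lie in the Vmn1r4 to Vmn1r31 cluster (chr6:56923914-58472878). Its 28 genes had a mean of 33.9% ± 8.86 in controls and 13.8% ± 2.15 in cKO (SD, n = 6 lists), lower in 6 of 6 pairs. The genes called were Vmn1r4, Vmn1r5, Vmn1r6, Vmn1r8, Vmn1r10, Vmn1r13, Vmn1r18, Vmn1r19 and Vmn1r21. Vmn1r calls depended strongly on the setting. With no flanks 3 Vmn1r genes were called lower, at equal covered length 1 and with 5 kb flanks 21, beside 10, 7 and 18 Vmn2r genes. With no flanks, Vmn1r19 was lower in 3 pairs and higher in 3, Vmn1r18 lower in 5 and higher in 1, and Vmn1r5 and Vmn1r21 lower in 6. Vmn1r10 had the largest difference among receptor genes called lower, with 36.3%, 100%, 100%, 73.2%, 77.8% and 66.7% in controls and 0%, 44.2%, 17.9%, 13.5%, 0% and 47.7% in cKO. These groups overlap, through the GD5.5 control, but each pair fell (-55.1 points, SE 9.12, limma adjusted p = 0.0194). Vmn1r18, whose CG-free window is printed above, had 34.2%, 85.9%, 62.0%, 48.0%, 64.7% and 32.2% in controls and 0%, 0%, 12.2%, 0%, 24.3% and 18.7% in cKO (-45.3 points, SE 8.99, limma adjusted p = 0.0302). Every control of Vmn1r18 lay above every cKO list. Vmn1r20, which was not called, kept at least 50% in all 16 lists, as did Vmn1r4.

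**Figure D3:**
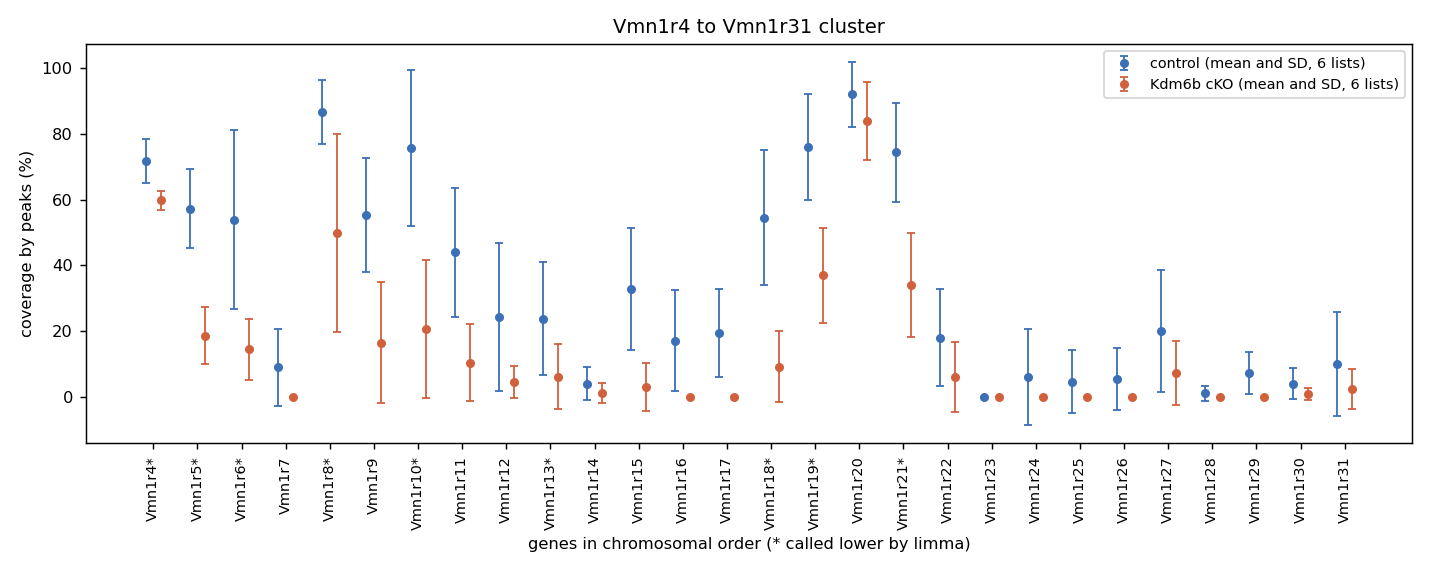
Coverage (y axis, percent) of the 28 genes of the Vmn1r4 to Vmn1r31 cluster in chromosomal order, as mean and SD over 6 control lists (blue) and 6 Kdm6b cKO lists (orange); the whiskers are SDs and may pass 0 or 100. Most covered genes lie in the first part of the cluster up to Vmn1r22, asterisks mark the 9 called lower, and Vmn1r20 stays high in both genotypes.

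The remaining Vmn1r calls were single genes of other clusters. Vmn1r189, near the start of the Vmn1r188 to Vmn1r223 cluster on chromosome 13, had 65.9%, 91.6%, 100%, 100%, 85.1% and 64.5% in controls and 35.2%, 47.3%, 41.4%, 34.7%, 29.4% and 31.8% in cKO. The lowest control was above the highest cKO list (-47.9 points, SE 5.40, limma adjusted p = 0.00749). Vmn1r40 had 54.9% to 100% in controls and 48.2% to 87.9% in cKO, which overlap, but it was lower in each pair (-8.12 points, SE 1.24, limma adjusted p = 0.0161). Of the 24 genes called lower, 22 were lower in 6 of 6 pairs, and the other 2, Vmn1r8 and Vmn1r13, were lower in 5.

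Seen by cluster, 10 of the 23 clusters of 5 or more genes had a lower mean in cKO in all 6 pairs, 9 of them among the 13 covered ones. Besides Vmn1r4 to Vmn1r31, these were Vmn1r32 to Vmn1r39 (44.0% and 34.6%), Vmn1r40 to Vmn1r54 (54.4% and 43.4%), Vmn1r85 to Vmn1r89 (64.3% and 44.1%) and Vmn1r188 to Vmn1r223 (17.3% and 8.64%), each given as control and cKO mean. Among Vmn2r clusters they were Vmn2r1 to Vmn2r7 (13.7% and 2.79%), Vmn2r8 to Vmn2r17 (16.2% and 13.0%), Vmn2r19 to Vmn2r27 (6.76% and 1.55%) and Vmn2r111 to Vmn2r117 (15.4% and 4.82%). The bare Vmn2r57 to Vmn2r126 cluster was the remaining one (1.86% and 1.12%). The covered clusters that were not lower in every pair were Vmn1r224 to Vmn1r237 on chromosome 17 (45.3% and 42.996%, 5 of 6 pairs), Tas2r139 to Tas2r126 (31.9% and 25.6%, 5 of 6), Tas2r120 to Tas2r140 (18.6% and 9.55%, 5 of 6) and Taar1 to Taar9 (74.6% and 73.8%, 5 of 6).

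Bins of 100 kb, which include the DNA between genes, moved the same way. The clusters hold 241 bins, of which 68 passed the filter on coverage, and limma called 50 of these lower (73.5%) and 1 higher. Over all 18272 bins tested, 18.2% were called lower and 27.8% higher. Of all bins, tested or not, 50 of 241 were called lower in the clusters and 3326 of 25741 over the chromosomes. Some bins called lower were under 5% in cKO and so passed the filter through the controls. Examples are chr6:57200000-57300000 (9.28% in controls and 1.16% in cKO) and all 3 tested bins of Vmn2r1 to Vmn2r7. Bins were not fitted without the filter. The lower bins fell in 21 clusters, with 9 of 10 tested bins in Vmn1r4 to Vmn1r31, 6 of 6 in Vmn1r188 to Vmn1r223, 4 of 4 in Vmn2r80 to Vmn2r83 and 4 of 5 in Vmn2r111 to Vmn2r117. The single higher bin lay in the Taar cluster, and its call was lost without the Pdgfra-Cre pair or the Pgr-Cre pair of GD5.5 IIS, GD14.5 IS or GD18.5 IS (0 called in each case). No bin was called in either direction in Vmn2r90 to Vmn2r110, where 3 were tested. At equal covered length 29 bins were called lower and 0 higher.

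Tas2r119 went the other way. This bitter receptor gene (chr15:32177289-32178294) stands alone on chromosome 15. Its coverage was 0%, 0%, 0%, 0%, 3.34% and 0% in the controls and 100%, 73.5%, 43.3%, 76.7%, 52.1% and 69.8% in cKO. The groups are far apart, and the rise of 68.7 points (SE 7.77, limma adjusted p = 0.00757) was the largest among receptor genes. With a control mean of 0.556%, Tas2r119 passed the 5% filter only through the cKO lists. With no filter on mean coverage, 1 Tas2r gene was called higher. All 4 B6CBAF1/J lists had 0%. The DNA around it was also more covered in cKO: the 50 kb before it (without the nearest 2 kb) went from 22.2% ± 11.4 to 68.7% ± 6.21 and the 50 kb after it from 15.3% ± 13.8 to 71.6% ± 6.16 (SD, n = 6 lists). The next gene, Sema5a, a guidance molecule gene, was at 0% in all 12 lists. The peaks over Tas2r119 were weak, with a fold of 1.04 to 1.42 and a −log10 q of at most 0.382. The call was lost at equal covered length (42.6 points, limma adjusted p = 0.117) and with no flanks added (63.6 points, limma adjusted p = 0.0693), each higher in 5 of 6 pairs.

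**Figure D4:**
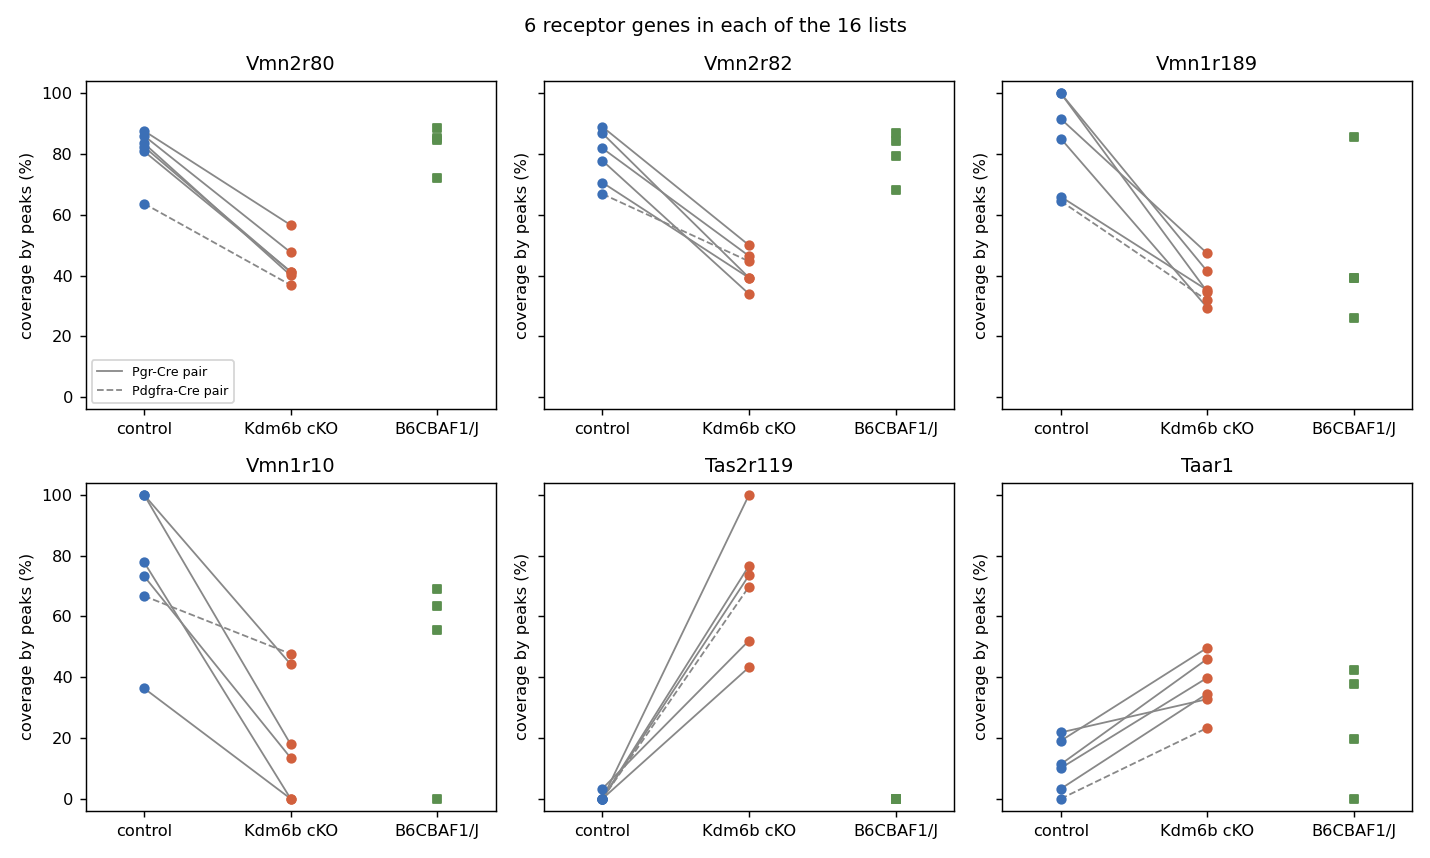
Coverage (y axis, percent) of 6 receptor genes in the control and Kdm6b cKO lists, joined by pair (dashed line: the Pdgfra-Cre pair), and in the 4 B6CBAF1/J lists (green squares). Vmn2r80, Vmn2r82 and Vmn1r189 show cKO below control without overlap, Vmn1r10 with overlap, and Tas2r119 and Taar1 show cKO above control.

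The Taar cluster (chr10:23920406-24109534) had 64.9% of its span inside peaks in controls and 64.6% in cKO, and the DNA between its genes had 58.0% and 58.2%. Within it, the genes differed more from one another than the genotypes did. Taar2, Taar3, Taar5, Taar8a, Taar8b and Taar9 had control means of 97.0% or more, while Taar1, Taar4, Taar7d and Taar7f had 10.9%, 37.9%, 44.997% and 16.6%. Taar1, the trace amine receptor of the brain and the one member not used as an olfactory receptor, lies at the end of the cluster. It had 10.08%, 3.26%, 19.1%, 11.3%, 21.8% and 0% in controls and 39.8%, 34.6%, 49.7%, 46.0%, 32.8% and 23.3% in cKO. Each cKO list lay above each control list, and Taar1 rose by 26.8 points (SE 3.28, limma adjusted p = 0.00900). Taar6 rose from 77.4% ± 12.5 to 89.7% ± 9.68 (limma adjusted p = 0.0419), higher in 5 of 6 pairs and at 100% on both sides in the sixth. Neither was called at equal covered length. The Taar6 call depends on the flanks: with none added, the gene itself had 99.98% in controls and 87.8% in cKO, lower in 2 pairs and higher in 0. Vmn1r54, at the end of a vomeronasal cluster, was higher in 6 of 6 pairs (40.6% ± 18.9 and 62.1% ± 15.7) but missed the threshold (limma adjusted p = 0.0528). With no flanks it had 51.5% and 29.3%, lower in 4 pairs and higher in 2, so its direction also depends on the flanks.

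**Figure D5:**
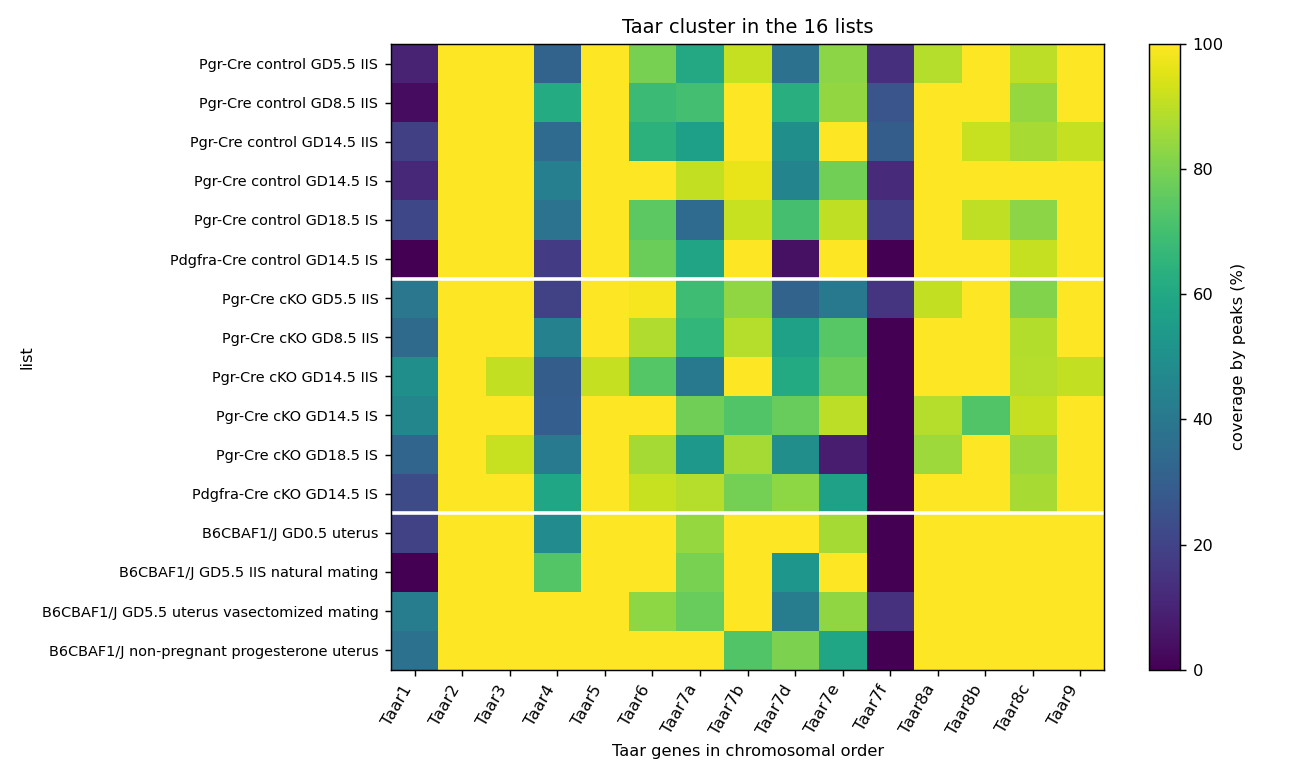
Coverage (colour, percent) of the 15 Taar genes in chromosomal order (x axis) in the 6 control, 6 Kdm6b cKO and 4 B6CBAF1/J lists (rows). Taar2 is at 100% in every list, Taar7f is at or near 0% in most, and Taar1 is lower in the 6 controls than in the 6 cKO lists.

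Single pairs, with 1 list per side and no test, show which genes carried the largest differences at each stage. At GD5.5, Vmn1r8 went from 77.5% to 17.9% and Vmn1r214 from 54.6% to 0%, while Tas2r140 went from 29.8% to 80.9%. At GD8.5, Vmn1r18 went from 85.9% to 0% and Vmn1r19 from 78.8% to 18.8%, and the lone gene Vmn1r1 from 25.4% to 66.4%. At GD14.5 IIS, Vmn1r10 went from 100% to 17.9% and Vmn1r43 from 85.1% to 11.6%. Tas2r119 had the largest gain of the receptor genes in each of the 5 Pgr-Cre pairs, and Taar1 the next at GD14.5 IIS. At GD14.5 IS, Vmn1r180 went from 91.8% to 16.8%, Vmn1r9 from 70.3% to 0% and Vmn1r223 from 14.9% to 53.3%. At GD18.5 IS, Taar7e went from 90.3% to 7.60%, Vmn1r10 from 77.8% to 0% and Tas2r134 from 11.1% to 58.2%. In the Pdgfra-Cre pair, Vmn1r188 went from 88.5% to 31.8%, Vmn1r44 from 81.7% to 26.4% and Taar7d from 4.67% to 83.1%.

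Whether the knockout difference differed between the 3 IS and 3 IIS pairs was tested with a site term. The IIS pairs are all Pgr-Cre and run from GD5.5 to GD14.5. The IS pairs are from GD14.5 or GD18.5 and include the Pdgfra-Cre pair. The term therefore cannot separate site from gestation day or Cre driver. No receptor gene was called by limma, nor was any gene (0% of those tested). At an unadjusted p under 0.05 there were 4 receptor genes of 134 with a lower and 7 with a higher term at IS, beside 179 and 472 of all 10205 genes.

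Across gestation, the control means of Vmn1r genes were 14.9% at GD5.5, 19.5% at GD8.5 and 21.4% at GD14.5 at IIS. A change of at least 50 points between 2 lists was counted, with no test. From GD5.5 to GD8.5, 0 receptor genes were lower and 5 higher, where 0.079% and 0.195% of all genes were. Vmn1r10 went from 36.3% to 100% and Vmn1r218 from 0% to 59.3%, while Vmn1r1 and Vmn1r43 went down to 25.4% and 29.4% from 58.0% and 61.1%. From GD8.5 to GD14.5 at IIS, 0 were lower and 4 higher (0.0418% and 0.269% of all genes). The GD14.5 list covers more DNA (731 against 680 Mb), and at equal covered length 6 were lower and 2 higher. Vmn1r50 went from 26.3% to 91.3% and Vmn1r180 from 14.7% to 77.2%, while Vmn1r38 went from 73.0% to 26.8% and Vmn1r216 from 44.3% to 0%.

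From GD14.5 to GD18.5 at control IS, 3 receptor genes were lower and 1 higher (0.0465% and 0.153% of all genes). Vmn1r34 went from 90.5% to 32.5%, Taar7a from 90.7% to 35.1%, Vmn1r12 from 0% to 51.6% and Tas2r125 from 0% to 46.1%. At GD14.5, control IS against IIS had 4 lower and 0 higher (0.204% and 0.0325% of all genes). Vmn1r218 had 64.8% at IIS and 0% at IS, Tas2r139 had 97.2% and 35.2%, Vmn1r40 had 55.9% and 100%, and Vmn1r46 had 51.1% and 89.2%. Against the Pdgfra-Cre control of the same day and site, the Pgr-Cre control had 0 lower and 3 higher (0.0418% and 0.302% of all genes). Vmn1r180 had 15.2% in the Pdgfra-Cre control and 91.8% in the Pgr-Cre control, Vmn1r221 had 21.8% and 97.3%, Vmn1r217 had 40.5% and 0%, and Vmn1r17 had 27.6% and 0%. The 2 controls thus differed by up to 76.6 points at single receptor genes. These counts also moved at equal covered length, to 1 lower and 11 higher from GD5.5 to GD8.5, 3 and 6 from GD14.5 to GD18.5, 8 and 6 at IS against IIS, and 3 and 6 between the controls.

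The cKO lists had Vmn1r means between 11.9% and 13.2%, and single genes still differed between them. From GD5.5 to GD8.5, Vmn1r8 went from 17.9% to 100% and Tas2r118 from 0% to 58.0%, while Vmn1r180 went from 38.6% to 2.01% and Vmn1r34 from 46.2% to 12.2%. From GD8.5 to GD14.5 at IIS, Vmn1r8 and Tas2r118 went back to 40.5% and 0%, and Vmn1r46 and Vmn1r19 went up to 41.3% and 55.2%. From GD14.5 to GD18.5 at IS, Taar7e went from 89.99% to 7.60%, Vmn1r40 from 87.9% to 50.7%, Vmn1r86 from 20.5% to 75.5% and Vmn1r9 from 0% to 40.3%. At GD14.5, IS against IIS showed Tas2r140 at 30.3% and 80.2%, Vmn1r86 at 20.5% and 67.5%, Vmn1r40 at 87.9% and 48.2%, and Taar7a at 78.5% and 40.4%.

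In the B6CBAF1/J set, vomeronasal and bitter receptor genes were most covered at GD0.5, and Taar genes were high in every list. The Vmn1r means were 16.6% at GD0.5, 13.0% after natural mating, 13.3% after the vasectomized mating and 10.9% with progesterone. In the same order the Vmn2r means were 8.05%, 6.27%, 7.24% and 5.87%, the Tas2r means 14.8%, 6.98%, 9.29% and 6.22%, and the Taar means 82.6%, 80.4%, 82.8% and 83.3%. All autosomal genes had 22.2%, 23.0%, 22.5% and 22.0%. The 3 comparisons share the GD0.5 list, and each has 1 list per side and no test.

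Counted at 50 points against GD0.5, natural mating had 3 receptor genes lower and 0 higher (0.242% and 0.307% of all genes). The vasectomized mating had 7 lower and 1 higher (0.274% and 0.274% of all genes), and progesterone had 9 lower and 1 higher (0.664% and 0.404% of all genes). Tas2r140 had 86.4% at GD0.5 and 0% after either mating. Vmn1r189 had 85.5% at GD0.5 and 25.98% after natural mating, and Tas2r124 had 74.8%, 14.9% after the vasectomized mating and 0% with progesterone. Vmn1r54 had 100% at GD0.5 and 23.8% with progesterone. In the other direction, Taar4 had 48.1% at GD0.5, 73.2% after natural mating and 100% in the other two lists, Vmn1r237 had 55.0% and 100% after natural mating, Vmn1r7 had 0% and 36.1% after the vasectomized mating, and Vmn2r8 had 61.1% and 81.8% with progesterone. Between the matings, Vmn1r42 had 10.102% after natural and 75.7% after vasectomized mating, Vmn1r44 had 41.1% and 84.3%, Vmn1r237 had 100% and 52.0%, and Vmn1r38 had 98.1% and 64.9%.

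Genes that work with these receptors were tested in the same fit, in which 6.45% of all genes were called lower and 7.99% higher. A list of 24 genes for vomeronasal, taste and olfactory signal transduction included Trpc2, Gnao1, Trpm5, Gnat3 and Gnal. Of these, 23 were measured and 16 passed the filter, and limma called 0 lower and 0 higher. The largest differences in that list were +14.0 points for Rtp2, a receptor transport gene, and -12.8 for Cnga4, a channel subunit (limma adjusted p = 0.257 and 0.199). Of 12 transcription factor genes of sensory neurons, 10 were tested and 1, Ebf2, was called, higher (66.1% and 71.0%, limma adjusted p = 0.0363), while Ebf4 (+6.23 points) and Lhx2 (-5.91 points) were not. Among 15 other vomeronasal receptors and their partners, 9 were tested and 2 were called lower. These were 2 non-classical MHC genes: H2-M1, from 67.3% ± 17.8 to 6.86% ± 9.62, and H2-M11, from 64.6% ± 17.04 to 8.05% ± 9.50 (SD, n = 6 lists; limma adjusted p = 0.00450 and 0.0103). Of 37 Mup and Esp genes, which encode secreted pheromones, 24 were at 0 in all 16 lists and 6 were tested with 0 called, the largest differences being -33.7 points for Mup6 and -25.96 for Mup3 (limma adjusted p = 0.0776 and 0.0739). Of 577 olfactory receptor genes tested, 86 were called lower and 3 higher.

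Active genes are usually free of this mark, and 7 of 9 fibroblast markers were at 0 in all 16 lists, while Pdgfra and Thy1 had control means of 22.9% and 8.30%. Epithelial markers were covered, with means over the list's genes of 81.2% to 89.2% in controls and 86.3% to 93.0% in cKO, and immune markers had 68.6% to 73.4% and 67.7% to 71.7%. Endothelial markers had 8.13% to 14.9% in controls and 13.1% to 25.2% in cKO. Tek was called higher (limma adjusted p = 0.0161), as was the epithelial gene Cdh1 (limma adjusted p = 0.00415). With a mean of 1.26% in controls and 10.05% in cKO, Tek passed the 5% filter only through the cKO lists. Smooth muscle markers had 18.0% to 28.9% and 14.6% to 29.1%. The part of cell makeup in the receptor results was not tested.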

How the data were processed

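Broad H3K27me3 peak lists were deposited by the authors, each pooling 3 samples of a group; 16 lists stand for 48 of the 80 samples, and the other 32, 20 of them inputs, are not analysed here. The submitters' processing notes name mm10, STAR 2.7.5c, samtools 1.10, bedtools 2.29.1, bedGraphToBigWig 2.8, Picard and macs2 2.2.7.1. Each peak carries the fold over background (a ratio), the −log10 p and the −log10 q that the authors deposited, and a signal-like score that was not used. The fold and −log10 values were used only to describe or filter peaks.

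From the positions, overlapping peaks were merged, and the percent of each gene span with 2 kb on either side inside peaks was computed for 21523 protein-coding genes of chromosomes 1 to 19 and X (RefSeq, GRCm38.p6). limma 3.58.1 (R 4.3.3) was fitted to the 6 paired differences of all genes, or 100 kb bins, with a mean of at least 5%, with Benjamini-Hochberg adjustment over all of them; the procedure was tested on simulated data. Python 3.11.15, numpy 2.4.6, pandas 2.3.3 and matplotlib 3.10.9 did the rest. The Kdm6b and B6CBAF1/J lists were kept apart. The files give no read depth, so no interval rests on depth.

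Members and gene lists were chosen with earlier results of these data known. Genes were named by rule: the 3 most covered of each family, the 8 with the smallest p among those lower in all 6 pairs and the 4 among those higher (3 exist), the 2 largest gains and losses of each single comparison, every cluster of 5 or more genes, and the 2 largest differences of each list. The other genes called by limma, H2 genes, Ebf2, Cdh1, Taar genes, and Vmn1r10, Vmn1r18 and Vmn1r20 were named after their values were seen. Alternatives were other peak filters, flanks, fits, bin sizes and join distances, and leaving out each pair.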

Additional observations from a re-analysis of the deposited data

Results flagged for a closer look

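Paired differences (cKO minus control) of the families, the clusters and the named genes were examined for a pair far from the other 5, which chance gives in about 1 of 20 sets of values. Of 56 sets, 5 had such a pair. The mean over the 15 Taar genes differed by 7.99 points in the Pdgfra-Cre pair and by -6.28 to -1.01 in the Pgr-Cre pairs. All Taar genes form 1 cluster, so family and cluster share this value. The Pdgfra-Cre control list covers the least DNA of all lists, 609 Mb, and its part in this value was not tested. In the Pgr-Cre GD18.5 IS pair, the nearly bare Vmn1r66 to Vmn1r71 cluster differed by -5.36 points (0 to 0.975 in the others) and the Vmn1r72 to Vmn1r84 cluster by -4.65 (-0.632 to 0 in the others). Vmn2r3 differed by -29.3 points in the Pgr-Cre GD14.5 IIS pair and by -15.8 to -10.1 in the others.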

How the results depend on the processing

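The counts of receptor genes lower and higher in cKO (24 and 3) were 9 and 0 at equal covered length, 13 and 1 with 0 kb flanks, 42 and 3 with 5 kb flanks, 8 and 2 with no filter on mean coverage, 41 and 4 with the median difference subtracted, and 0 and 0 with peaks past a −log10 q of 2 or with a fold of at least 1.5, where few genes are left to test. A window of 2 kb around the RefSeq start, chosen after seeing the data, gave 0 and 1. Leaving out 1 pair gave 9 to 25 lower. Lower bins (50) were 29 at equal covered length, 77 in bins of 50 kb and 0 under either peak limit. Higher bins (1) were 0 at equal covered length, with the median subtracted and under either limit, 2 in bins of 50 kb, and 0 to 1 without 1 pair. Apart from the fewer features under the peak limits, the cause was not tested. The unpaired fit and the robust prior kept the lower calls within 1.5 times (34 and 21).

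The family difference was -0.199 and -0.693 points for Vmn1r, and -0.113 and -0.363 for Vmn2r, with the −log10 q and the fold limit. At equal covered length it was -4.06 for Vmn1r and -3.51 for Vmn2r, and for Taar -6.88. The Taar sign reversed to 1.84 with the fold limit and to 0.346 without the Pgr-Cre GD18.5 IS pair (range -2.51 to 0.346 over the pairs left out). Clusters lower in all 6 pairs (10) were 0 and 0, and genes at 0 in all 16 lists (199) were 396 and 382, under the −log10 q and fold limits.

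Counts at 50 points between single lists moved with nearly every setting. They are given as lower and higher in the order GD8.5 against GD5.5, GD14.5 against GD8.5, GD18.5 against GD14.5, IS against IIS, Pgr-Cre against Pdgfra-Cre control, natural mating, vasectomized mating and progesterone. At equal covered length they were 1 and 11, 6 and 2, 3 and 6, 8 and 6, 3 and 6, 5 and 1, 9 and 3, and 12 and 3. With 0 kb flanks they were 7 and 15, 9 and 18, 7 and 15, 22 and 6, 5 and 13, 9 and 5, 14 and 10, and 14 and 6. With 5 kb flanks they were 0 and 1, 0 and 0, 0 and 0, 1 and 0, 0 and 1, 1 and 0, 3 and 0, and 4 and 0. With the fold limit they were 1 and 2, 2 and 2, 1 and 0, 3 and 1, 1 and 0, 0 and 3, 0 and 3, and 0 and 3. With the −log10 q limit they were 0 lower in all 8, and 1 higher in GD18.5 against GD14.5 and in progesterone and 0 in the others. At 25 points they were 2 and 24, 7 and 20, 12 and 21, 22 and 10, 2 and 29, 27 and 2, 25 and 3, and 33 and 1.

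Depth is not recorded, so no difference can be set against counting error.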
